A study of Homo sapiens with 8 samples.

Results

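Metallothioneins are small cysteine-rich proteins that bind zinc, copper and cadmium, and their genes lie side by side on chromosome 16. The 9 genes described here are MT1A, MT1E, MT1F, MT1G, MT1H, MT1M, MT1X, MT2A and MT3, of 60649 gene identifiers and 19942 protein-coding genes in the files. They were taken by symbol from the family's protein-coding genes, with earlier results of these data known. The protein-coding genes MT1B, MT4 and MT1HL1 are not among them. Their transcripts were quantified by sequencing polyA RNA of HCT116, a human colorectal cancer cell line, and of UF1hypo, a clone of HCT116 in which an exon of one UHRF1 allele was excised. UHRF1 brings DNMT1 to newly replicated DNA, where DNMT1 maintains methylation. Cells of each line were infected with a lentivirus encoding either a hairpin that targets UHRF1 (shUHRF1) or the control hairpin shScr, and were selected with puromycin, which gave 4 groups of 2 libraries, or 8 libraries. UF1hypo is a single clone, so the heterozygous allele and any other trait of that clone cannot be told apart. No source used here says that the libraries of a group came from separate cultures, so the p-values measure the spread between these libraries, which may be technical.

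The files give coverage, FPKM and TPM, where TPM is transcripts per 1000000 after division by gene length, and they hold no read counts. Aligned bases, recovered from coverage and FPKM, ranged from 5.418 to 7.835 gigabases. Pearson's r between replicates across genes was between 0.991 and 0.992 in 3 groups and 0.956 in UF1hypo shUHRF1. In that group the difference of replicate 1 from replicate 2 followed transcript GC content (Spearman's rho 0.814 across genes, which are not independent replicates). In UF1hypo shScr it did so in the opposite direction (rho −0.51), and in the HCT116 groups rho was −0.04 and −0.07. Epithelial markers summed to between 4547 and 13252 TPM, with values in every library, and all 3 endothelial markers lay below 1 TPM in all libraries. Of 6 leukocyte markers 5 were below 1 TPM in all libraries, with CD68 the exception at 6.27 to 107 TPM, and of 5 fibroblast markers 4 were below 1 TPM, with COL1A1 the exception. The neural markers summed to between 2.25 and 8.41 TPM.

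Transcription of metallothionein genes is known to be switched on by metals through MTF1, a zinc-sensing factor that binds metal response elements in their promoters, and glucocorticoids and oxidative stress are known to raise it as well. MT2A and several MT1 genes are widely expressed, whereas MT3 is known chiefly from brain and MT4, which is not a member here, from stratified squamous epithelium. Several MT1 promoters are known to be silenced by DNA methylation in tumours, MT1G among them. DNA methylation was not analysed here.

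In the coordinates of the files (GRCh38) the 9 genes span 95.1 kb of chromosome 16, from 56589074 to 56684196. MT3 comes first (ENSG00000087250.9, 56589074 to 56591088), followed by MT2A (ENSG00000125148.7, 56608584 to 56609497), MT1E (ENSG00000169715.15, 56625475 to 56627112) and MT1M (ENSG00000205364.4, 56632659 to 56633981). MT1A (ENSG00000205362.11) lies at 56638666 to 56640087 and MT1F (ENSG00000198417.7) at 56657731 to 56660698. MT1G (ENSG00000125144.14, 56666730 to 56668065) is the only member on the minus strand, and its 5′ end faces that of MT1H (ENSG00000205358.4, 56669814 to 56671129) across 1.75 kb. MT1X (ENSG00000187193.9, 56682470 to 56684196) closes the cluster. In GENCODE version 44 every member has 3 exons in the transcript used, except MT1E with 2, and the transcripts are between 396 and 425 bases long, except that of MT1E with 746. Short transcripts that share stretches of sequence can exchange reads. Of the 50-base windows of each transcript, between 5.76% and 20.4% also occur in another gene for 7 of the 9 members, 51.0% do for MT1X and 0% for MT3. For MT1G the value is 19.9%, shared among 11 genes that include MT1X and MT2A, so low values of MT1G, MT1A and MT1M are uncertain in origin. The MT1X windows are mostly shared with RP11-343H19.2, an RNA that overlaps it on the same strand and was listed at 0 TPM in all 8 libraries.

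The 250 bases before the start site are printed for the 3 members that the RefSeq table matched (GRCh38.p14, plus strand), so that their metal response elements can be seen beside their levels. MT2A lies behind chr16:56608334-56608583, MT1X behind chr16:56682220-56682469 and MT1H behind chr16:56669564-56669813. Capitals mark every match to the metal response element core, searched as TGCACNC and TGCGCNC on both strands, so that a match on the other strand reads GNGTGCA or GNGCGCA. No matches overlap.

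MT2A: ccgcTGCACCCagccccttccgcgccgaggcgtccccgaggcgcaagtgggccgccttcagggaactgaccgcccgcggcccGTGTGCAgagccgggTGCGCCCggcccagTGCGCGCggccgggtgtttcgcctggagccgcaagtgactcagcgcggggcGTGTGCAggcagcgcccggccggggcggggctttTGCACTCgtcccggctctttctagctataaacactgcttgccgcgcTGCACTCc

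MT1X: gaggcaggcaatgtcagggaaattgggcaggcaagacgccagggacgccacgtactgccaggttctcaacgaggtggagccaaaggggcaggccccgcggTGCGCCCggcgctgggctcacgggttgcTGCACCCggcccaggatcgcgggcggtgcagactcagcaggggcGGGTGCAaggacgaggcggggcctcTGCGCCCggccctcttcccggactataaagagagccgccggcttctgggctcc

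MT1H: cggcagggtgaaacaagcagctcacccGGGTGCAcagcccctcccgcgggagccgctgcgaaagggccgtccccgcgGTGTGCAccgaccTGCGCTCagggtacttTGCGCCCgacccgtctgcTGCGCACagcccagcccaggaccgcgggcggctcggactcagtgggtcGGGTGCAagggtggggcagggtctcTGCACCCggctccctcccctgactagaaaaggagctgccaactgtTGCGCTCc

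MT2A holds 7 matches, MT1X 4 and MT1H 8. Among 35116 promoters of the same length in the table, 24.8% hold at least 1 match and 1.58% at least 3, and 0.0313%, 0.370% and 0.0171% hold as many as or more than MT2A, MT1X and MT1H. CpG pairs number 32 in MT2A and 22 in each of MT1X and MT1H, against a median of 11. MT1H thus carried the most matches of these 3 genes while its transcript was listed at 0 TPM in every library, and a match is a run of letters rather than a measured binding site.

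UHRF1, the target of the hairpin, stood at 87.5 and 98.4 TPM in the HCT116 control libraries and at 31.7 and 32.7 TPM after knockdown. The UF1hypo controls gave 47.3 and 50.6 TPM, and the knockdown libraries 34.1 and 21.1 TPM. Both knockdown libraries lay below both controls in each line, and the libraries of UF1hypo shUHRF1 differed more from each other than those of any other group relative to their mean. On the log2(TPM + 1) scale the change was −1.498 in HCT116 (limma, adjusted p = 0.0564) and −0.84 in UF1hypo (adjusted p = 0.0406).

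MT2A, the most abundant isoform, was measured at a TPM of 821 and 706 in HCT116 shScr and of 735 and 1060 in HCT116 shUHRF1. UF1hypo cells gave 865 and 955 with the control hairpin, 1436 and 1044 with shUHRF1. It ranked between 74 and 151 among protein-coding genes in all 8 libraries, so a metallothionein was among the most abundant messages of these cells in every condition. The HCT116 groups overlapped, and in UF1hypo the knockdown libraries lay above the controls but far apart from each other (1240 ± 277, mean ± SD, n = 2). In bulk RNA a change in the share of expressing cells and a change in RNA per cell cannot be told apart.

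MT1E, the next in abundance, had a TPM of 161 and 150 in HCT116 shScr and of 165 and 197 in HCT116 shUHRF1. UF1hypo controls were at 190 and 203, and UF1hypo knockdown libraries at 338 and 303. The last group stood well above the other 3, at 320 ± 25.2 against 197 ± 9.20 in UF1hypo shScr. MT1E amounted to 23.5 and 29.0 per 100 MT2A in UF1hypo shUHRF1, and to between 18.6 and 22.5 in the other 6 libraries, which says how the TPM of these isoforms compared within each library.

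MT1X was at 40.3 and 36.3 TPM in HCT116 controls and at 43.6 and 61.4 TPM after knockdown. With shScr UF1hypo cells gave 35.6 and 36.1 TPM, and with shUHRF1 they gave 54.3 and 60.0 TPM. Both knockdown groups lay above their controls, and they overlapped each other. MT1F was at 7.33 and 7.20 TPM in HCT116 controls and at 9.51 and 7.89 TPM after knockdown. UF1hypo controls gave 8.71 and 7.93 TPM, against 16.1 and 9.51 TPM in UF1hypo shUHRF1. Replicate 1 of the last group stood apart from the other 7 libraries, which spanned 7.20 to 9.51 TPM. Scaled to 1000000 of summed coverage, MT1F was at 11.7 and 6.87 in UF1hypo shUHRF1 and between 5.49 and 9.88 in the other 6 libraries, so by coverage these ranges overlapped.

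The order MT2A, MT1E, MT1X, MT1F held in all 8 libraries, and the ranges of these 4 genes over the libraries did not overlap. Together the 9 members summed to 965 ± 92.9 TPM in HCT116 shScr and 1140 ± 264 in HCT116 shUHRF1 (SD, n = 2). UF1hypo controls summed to 1151 ± 72.9 and UF1hypo knockdown libraries to 1635 ± 305. MT2A made up between 73.6% and 79.9% of it. The lowest share of MT2A was that of UF1hypo shUHRF1 replicate 2.

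**Figure D1:**
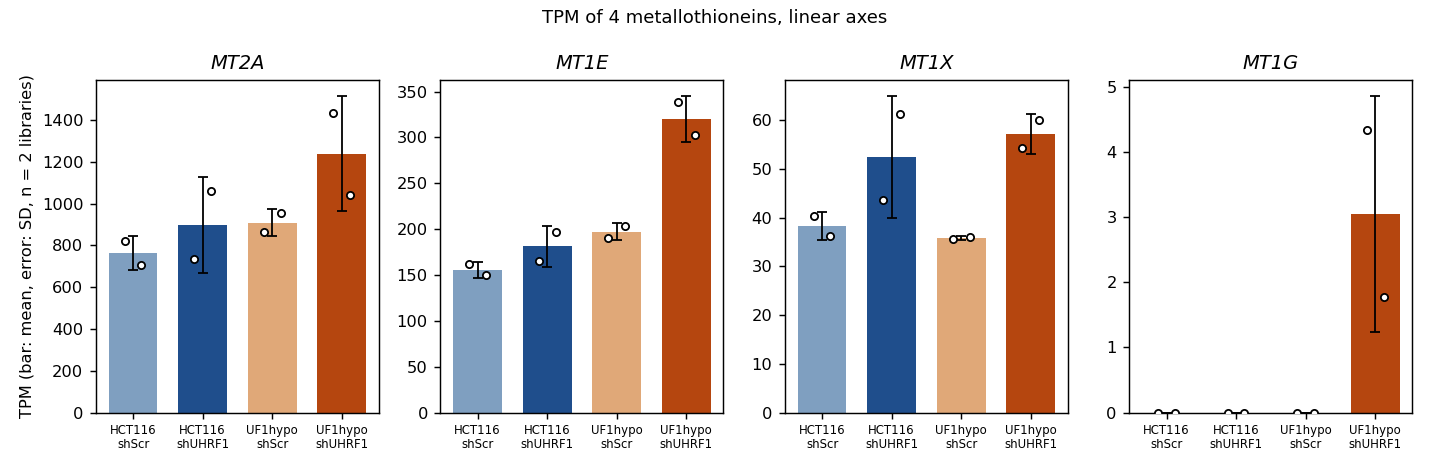
TPM (linear axis from 0) of MT2A, MT1E, MT1X and MT1G in the 4 groups. Bars are group means, error bars the SD and points the 2 libraries. MT1E reached 338 and 303 TPM in UF1hypo shUHRF1 and at most 203 elsewhere, and MT1G was above 0 only in that group.

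MT1G was listed at 0 TPM in all 4 HCT116 libraries and in both UF1hypo controls. In UF1hypo shUHRF1 it was at 4.33 and 1.77 TPM, with a coverage of 7.67 and 2.91 reads per base. Those 2 libraries alone carried a value. MT1A followed the same libraries at a lower level, with 1.295 and 0.155 TPM in UF1hypo shUHRF1 and 0 in the other 6.

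MT1M was at 0.228 TPM in UF1hypo shUHRF1 replicate 1 and at 0 in the other 7 libraries. MT3, the brain isoform, was at 0.752 TPM in UF1hypo shUHRF1 replicate 2, at 0.005 TPM in UF1hypo shScr replicate 1 and at 0 elsewhere. MT1H was listed at 0 TPM in all 8 libraries. These 3 genes never passed 1 TPM and were not tested. Since no counts were given, a listed 0 is not taken as the absence of the transcript. In number of members above 0 TPM, HCT116 libraries had 4, UF1hypo shScr 5 and 4, and UF1hypo shUHRF1 7 and 7. Protein-coding genes at 0 TPM shared a rank between 14611 and 15340 in the HCT116 and UF1hypo shScr libraries. In UF1hypo shUHRF1 that rank was 16326 and 16330. More protein-coding genes of all kinds were thus above 0 there, and the count of members is a description.

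**Figure D2:**
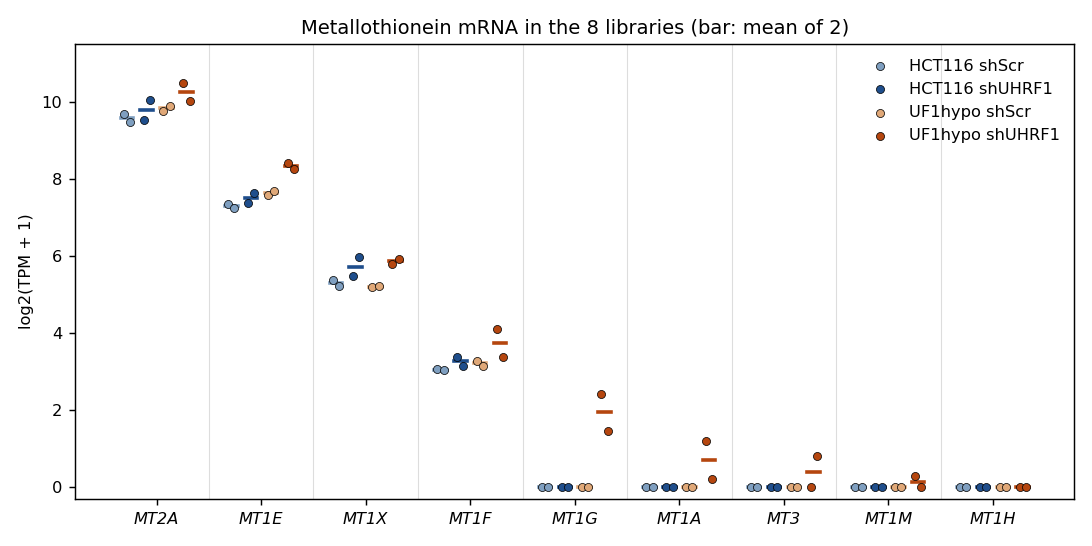
Level of each of the 9 members as log2(TPM + 1) in each library, by group (2 points a group). MT2A, MT1E, MT1X and MT1F lie above 0 in all 8 libraries, MT1G and MT1A lie above 0 only in UF1hypo shUHRF1, and MT1H lies at 0 throughout.

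**Figure D3:**
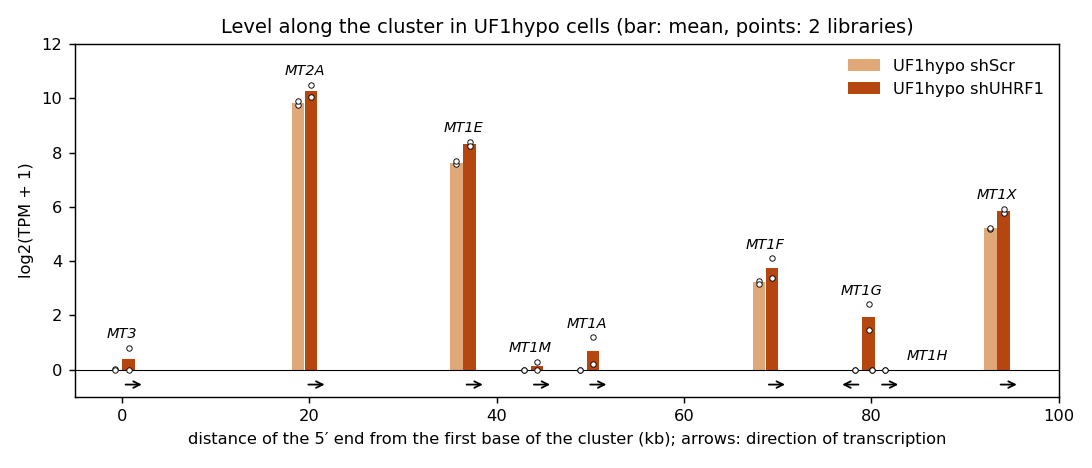
Level of each member in UF1hypo cells, as mean log2(TPM + 1) with shScr and shUHRF1, against the distance in kb of its 5′ end along the cluster. Neighbouring genes differ widely: MT1G and MT1H face each other across 1.75 kb, and MT1H is at 0 in both groups.

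Whether UHRF1 knockdown moved these genes was tested on log2(TPM + 1) with limma over all protein-coding genes above 1 TPM in at least 1 library of the contrast. A gene was called at a Benjamini-Hochberg adjusted p below 0.05 and an absolute log2 fold change above 1. For a single gene, 2 libraries against 2 allow no two-sided exact permutation p below 0.33, so the test draws on the spread of all genes.

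In HCT116, 4 members were tested and none was called in limma, nor did any reach an unadjusted p below 0.05, while 0.0708% of 12704 genes were called. Both shUHRF1 libraries lay above both shScr libraries for 3 of the 4, MT1E, MT1F and MT1X, against 20.1% of all genes tested. The log2 fold changes were 0.21 for MT2A (95% interval −0.27 to 0.70, adjusted p = 1), 0.22 for MT1E (−0.12 to 0.56), 0.43 for MT1X (−0.01 to 0.87) and 0.23 for MT1F (−0.35 to 0.81). Their median was 0.22 and that of all genes tested −0.03. The intervals allow no change and also a rise of up to 1.82-fold for MT1X.

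In UF1hypo, MT1G was the only member called on UHRF1 knockdown, of 6 tested, where 8.53% of 13620 genes were called. MT1G and MT1A passed the filter of 1 TPM only through the shUHRF1 libraries, where they were high, so nothing is read from the count over these 6, and the call of MT1G describes a gene that was above 0 in these libraries alone. With no TPM filter MT1G was called at an adjusted p of 0.00706 (limma). A gene then still needed a value above 0 in the contrast, so MT1G again entered only through the shUHRF1 libraries. For MT1G the difference in log2(TPM + 1) was 1.94 (standard error 0.293, adjusted p = 0.00361), a size that depends on the added 1 because the controls were listed at 0. That standard error pools groups in which MT1G was at 0 in both libraries. With the UF1hypo libraries fitted alone it was 0.369 (limma, adjusted p = 0.0470). MT1E differed by 0.70 (standard error 0.146, adjusted p = 0.0164), which is 1.62-fold (95% interval 1.29 to 2.05) on the TPM + 1 scale and short of the threshold on size. Its adjusted p was 0.122 when the UF1hypo libraries were fitted alone, and 0.152 or 0.0917 without UF1hypo shScr replicate 1 or 2.

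The other members gave values that did not pass the adjusted test. MT1X differed by 0.66 (standard error 0.192, adjusted p = 0.0580), MT1F by 0.53 (0.257, 0.228), MT2A by 0.43 (0.215, 0.238) and MT1A by 0.70 (0.300, 0.172). Without UF1hypo shUHRF1 replicate 2, in which MT1A was at 0.155 TPM, MT1A was called as well (1.199, adjusted p = 0.00118). That fit leaves 1 library in the group, which is assumed to vary like the other groups, and MT1A is at 0 in all of those, so this p says nothing of the spread of MT1A. MT1F moved to 0.17 without UF1hypo shUHRF1 replicate 1 and to 0.88 (adjusted p = 0.00985) without replicate 2, and MT2A to 0.20 and 0.66. For the 4 members above 1 TPM in all 8 libraries, MT2A, MT1E, MT1X and MT1F, both shUHRF1 libraries lay above both controls, as they did for 30.6% of all genes tested. Over these 4 the median log2 fold change was 0.59, against 0.04 for all genes. Sums over the marker lists were higher in the same libraries, though not every marker was. The leukocyte list summed to between 78.6 and 109 TPM in UF1hypo shUHRF1 and between 40.6 and 42.8 in UF1hypo shScr. Nearly all of it was CD68, with PTPRC at most at 0.0728 TPM in any library. The fibroblast list, mostly COL1A1, summed to between 38.3 and 66.2 against 23.0 and 28.9 TPM, and the epithelial list to between 10217 and 13252 against 9225 and 9582 TPM. Epithelial markers went both ways, with log2 fold changes of −0.55 for EPCAM and −0.01 for CLDN4. CDH1 gave 0.93, KRT18 0.43, KRT19 0.33 and KRT8 0.28. The neural list summed to between 5.51 and 8.41 against 2.25 and 2.92 TPM, while SYP changed by 0.13 and SNAP25 was listed at 0 TPM in every UF1hypo library. CD68 (1.11, adjusted p = 0.00838) and RBFOX3 (1.51, adjusted p = 0.0163) were called higher in this contrast (limma). The part of these markers in the results was not tested. The GC content of the members' transcripts was between 49.3% and 60.6%. After a correction of each library for GC content and length, the change of MT1G was 1.91, that of MT1E 0.66 and that of MT2A 0.34. With coverage per base in place of TPM, the change of MT1F was 0.09.

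**Figure D4:**
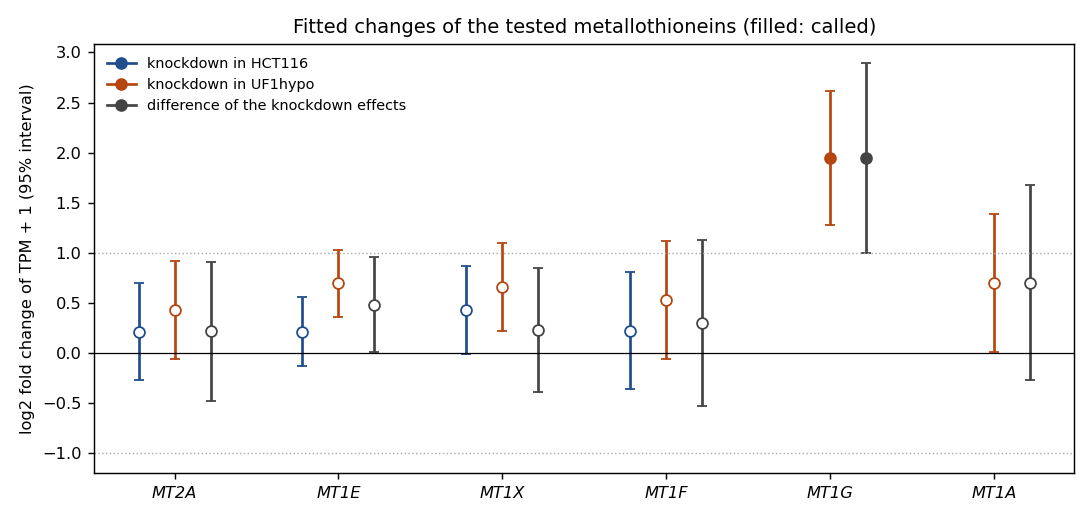
Log2 fold change on the log2(TPM + 1) scale with its 95% interval (limma) for the members tested, on UHRF1 knockdown in HCT116, on knockdown in UF1hypo, and for the difference between these effects. Filled points passed both thresholds, which only MT1G did, at 1.94 in UF1hypo and in the difference, and MT1G and MT1A were tested only through UF1hypo shUHRF1.

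Whether the knockdown acted differently in the lines was tested as the difference of the effects. MT1G was called, at 1.94 (standard error 0.414, adjusted p = 0.0345), as the only member of 6 tested, while 5.09% of 13781 genes were called. The same limit holds here, since MT1G and MT1A passed the filter only through UF1hypo shUHRF1, and the count is a description. With no TPM filter the adjusted p of MT1G was 0.0458 (limma), and it again entered only through UF1hypo shUHRF1. The call of MT1G held in 9 of 19 alternatives. Among those 9 are the fits without UF1hypo shUHRF1 replicate 1 or 2, which leave 1 library in that group and say nothing of the spread of MT1G. With all 8 libraries kept, its adjusted p ranged from 0.0210 to 0.131 (limma). The call was lost without any 1 of the HCT116 or UF1hypo shScr libraries, all of which list MT1G at 0. For MT1E the difference was 0.48 (95% interval 0.01 to 0.96, adjusted p = 0.262), and for MT2A it was 0.22 (−0.48 to 0.91). MT1X differed by 0.23 and MT1F by 0.30, neither past the test. The knockdown effects on these 4 genes were thus not shown to differ between the lines.

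With shScr, none of the 4 members tested was called between the lines, where 3.54% of 12856 genes were called. None of the 4 reached an unadjusted p below 0.05 (limma). MT1E was at 0.34 in UF1hypo against HCT116 (95% interval −0.00099 to 0.68, adjusted p = 0.275), MT2A at 0.25, MT1F at 0.17 and MT1X at −0.09. The adjusted p of MT1E was 0.0319 when the shScr libraries were fitted alone (limma), and its size stayed short of the threshold. With shUHRF1, 1 of 6 members was called, MT1G at 1.94 (standard error 0.291, adjusted p = 0.00187), where 16.2% of 13650 genes were called. MT1G and MT1A were again tested only because of the libraries in which they were high, and nothing is read from that count. MT1E was at 0.82 (standard error 0.146, adjusted p = 0.00428), short of the threshold on size, and MT1X at 0.14 with overlapping libraries.

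Genes around the metallothioneins were taken from lists of their regulators, of zinc and copper handling, of genes that answer the same stimuli, and of neighbours on the chromosome. Over all genes tested, 8.53% were called on knockdown in UF1hypo and 5.09% in the difference. Between the lines 3.54% were called with shScr and 16.2% with shUHRF1. Counts of calls in a list are a description. None of the 7 regulators was called in any of the 5 contrasts. MTF1, the metal sensor, was between 10.9 and 16.3 TPM in all libraries and gave 0.33 in UF1hypo (limma, adjusted p = 0.281). On knockdown in UF1hypo the median log2 fold change was 0.33 for the regulators and 0.40 for the NRF2 targets, against 0.04 for all genes. It was −0.30 for zinc exporters, −0.13 for zinc importers, −0.05 for copper handling and 0.03 for glucocorticoid targets. None of the 7 zinc exporters tested was called either. SLC30A1, an exporter that MTF1 is known to induce together with metallothioneins, was at 11.1 and 10.2 TPM in UF1hypo shScr and at 7.10 and 9.58 TPM in UF1hypo shUHRF1.

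Of 11 zinc importers tested, 1 was called on knockdown in UF1hypo, where 8.53% of all genes tested were called. SLC39A10 fell there from 23.2 and 17.4 TPM to 6.12 and 10.3 TPM, with a log2 fold change of −1.23 (limma, adjusted p = 0.0143). It was also lower in UF1hypo than in HCT116, by a log2 fold change of −1.13 with shScr (adjusted p = 0.0398) and −1.96 with shUHRF1 (adjusted p = 0.000833). HCT116 shScr libraries had 47.4 and 42.7 TPM of it and HCT116 shUHRF1 libraries 35.03 and 32.6 TPM, all above the 4 UF1hypo libraries. SLC39A8, an importer that also carries cadmium, was lower in UF1hypo than in HCT116 with shUHRF1 (−1.89, adjusted p = 0.00198). No importer was called higher in any contrast. Of 9 copper genes, CCS, the copper chaperone of SOD1, was called higher in the same contrast (1.105, adjusted p = 0.00751) and no other copper gene was called.

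HMOX1, the heme oxygenase that heme, oxidants and metals induce, rose on knockdown in UF1hypo. It was the only one of 10 NRF2 targets called there, where 8.53% of all genes tested were called. Its TPM was 34.3 and 30.3 in the controls against 101 and 98.7 after knockdown, and it lay between 31.8 and 41.0 in HCT116 cells. The change was 1.60 in UF1hypo (limma, adjusted p = 0.000393) and its difference from the change in HCT116 was 1.36 (adjusted p = 0.0110). With shScr, OSGIN1 was higher in UF1hypo than in HCT116 (1.22, adjusted p = 0.0162) and SLC7A11, the cystine transporter, was lower (−2.29, adjusted p = 0.0103). With shUHRF1, HMOX1 and OSGIN1 were higher in UF1hypo.

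Among 4 glucocorticoid targets tested, none was called on knockdown in either line. The knockdown effect on TSC22D3 differed between the lines by 1.54 (limma, adjusted p = 0.0186), and its TPM was 20.6 and 17.9 in HCT116 controls against 10.7 and 8.99 after knockdown. UF1hypo controls had 23.8 and 18.6 TPM of it, and UF1hypo knockdown libraries 33.1 and 33.3 TPM. With shUHRF1, TSC22D3 and DUSP1 were higher and FKBP5 lower in UF1hypo than in HCT116.

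Within 500 kb of the cluster lie 13 other protein-coding genes, of which 10 were tested in UF1hypo. NLRC5, the activator of MHC class I genes, was the only one called on knockdown there, where 8.53% of all genes tested were called. It went from 13.0 and 15.5 TPM to 71.2 and 47.0 TPM (1.95, limma, adjusted p = 0.00136). NLRC5 was also called higher in UF1hypo than in HCT116 with shScr (1.12, limma, adjusted p = 0.0342). In the difference of the effects it was called too (2.35, limma, adjusted p = 0.00772). In HCT116 it lay between 3.90 and 6.22 TPM. BBS2, OGFOD1 and NUP93, at the flanks of the cluster, gave −0.58, −0.12 and −0.47 in UF1hypo and were not called. NUDT21 was not called on knockdown in either line, but was called lower in UF1hypo than in HCT116 with shUHRF1 (−1.34, limma, adjusted p = 0.00866), where NLRC5 was called higher (3.47). On knockdown in UF1hypo the median of the neighbours was −0.05, against 0.04 for all genes.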

How the data were processed

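RNA-seq of polyA RNA gave 8 libraries, grouped by the sample titles. The authors used Fastp for trimming, HISAT2 2.0.4 for alignment to GRCh38, and StringTie 2.1.4 for gene abundance. The deposited coverage is the mean read depth per base of a gene, not scaled for library size. The deposited FPKM values are scaled by the authors for length and aligned bases, and the deposited TPM values to 1000000 per library. No counts were given, so no counting interval was formed, and DESeq2 (used in the study) was not run. Aligned bases were taken as the most common ratio of coverage to FPKM in a library, shared by between 1366 and 1808 genes. Other genes, most members among them, have another ratio, so results by coverage and by TPM can differ for reasons that were not tested. Members were rows whose gene name matched, and 60463 of 60649 identifiers matched GENCODE version 44.

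All libraries entered a single limma 3.58.1 fit (R 4.3.3, mean-variance trend, group means only, 4 residual degrees of freedom) on log2(TPM + 1) for 5 contrasts, with p-values adjusted over all genes tested. The fit was tested on simulated data. Tables and figures were made with Python 3.11.15. The members, lists and tests were chosen with earlier results of these data known. Named genes are the 9 members, UHRF1, other metallothionein genes, list genes called in any contrast (1 is not reported here), and the 5 genes most like the members' summed TPM. MTF1, SLC30A1, the flanking genes BBS2, OGFOD1 and NUP93, and the markers CD68, COL1A1, PTPRC, RBFOX3, SYP and SNAP25 were added after their values were seen. So were the single values of the epithelial markers. Replicate numbers were not used to pair samples in the main fit. Alternatives are given at the end.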

Additional observations from a re-analysis of the deposited data

Results flagged for a closer look

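For MT1G the test of the difference between the knockdown effects in the cell lines gave 1.94 on the log2(TPM + 1) scale (limma, adjusted p = 0.0345, and 0.0458 with no TPM filter). With or without the filter MT1G entered the test only through UF1hypo shUHRF1, and its call was lost in 10 of 19 alternatives. Both UF1hypo shUHRF1 libraries carried MT1G (4.33 and 1.77 TPM), and the other 6 libraries listed it at 0. The size depends on the added 1, and with 0.1 in its place it was 4.85. No group was large enough to test for an outlying sample.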

How the results depend on the processing

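Of 434 fold changes of members under 21 alternatives, 410 kept their direction and their side of the thresholds, 10 became weaker, 4 became stronger and 10 turned. Several alternatives, such as no TPM filter or a replicate block, change the test and leave the fold change itself as it was. Leaving out a library that lists MT1G at 0 also returns its fold change unchanged. Many of the 410 could therefore not turn, and the tally is a description. At an added 1, the log2 fold change of MT1G in UF1hypo was between 1.16 and 2.02, and without a library between 1.47 and 2.42. MT1G was listed at 0 in all libraries outside UF1hypo shUHRF1. A fit without 1 library of that group says nothing of the spread of MT1G, so those calls are no support. With no library left out, MT1G was called in UF1hypo in every alternative, with an adjusted p between 0.00205 and 0.0470 (limma). These fits reuse the same libraries, and MT1G entered each only through UF1hypo shUHRF1. Their spread also draws on groups that listed MT1G at 0 in both libraries. The repeated call is therefore a description and no added support. The number of members called there was between 1 and 2 when a library was left out, with MT1A as the second without UF1hypo shUHRF1 replicate 2. For the difference of the effects it was 0 with FPKM, median-ratio scaling, quantile normalization and all annotated genes, and between 0 and 2 without a library, 0 without each of the 4 HCT116 and 2 UF1hypo shScr libraries. Between the lines with shUHRF1 it was 2 with 0.1 added, and between 1 and 2 without a library.

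Directions that turned had small values. With coverage per base, an alternative chosen after seeing the data, MT1F gave −0.27 on knockdown in HCT116 and −0.033 between the lines with shScr. With the GC content and length correction, MT2A gave −0.029 between the lines with shScr and MT1X −0.072 with shUHRF1. Without a library, MT2A ranged from −0.051 to 0.48 on knockdown in HCT116, and the difference of the effects from −0.052 to 0.66 for MT1F, −0.012 to 0.47 for MT1X and −0.047 to 0.48 for MT2A. MT1X ranged from −0.10 to 0.38 between the lines with shUHRF1. The cause was not tested.

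Over all genes, the number called moved from 9 to between 1 and 89 on knockdown in HCT116 and to 0 without any HCT116 library, from 1162 to between 563 and 1548 in UF1hypo (655 to 2255 without a library), and from 702 to between 448 and 1042 for the difference (171 to 2142). Between the lines it moved from 455 to between 361 and 585 with shScr (149 to 190) and from 2205 to between 1548 and 2912 with shUHRF1 (1585 to 3859). Quantile normalization moved the median of all genes from 0.04 to −0.06 in UF1hypo, and the share of calls that were higher from 86.7% to 70.2% there, from 89.0% to 76.1% for the difference (73.5% with the GC correction) and from 75.7% to 56.8% between the lines with shUHRF1.

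The same replicate number did not pair samples (r of the deviations from group means between −0.40 and 0.05). With the replicate number as a block, MT1G was called in UF1hypo and in the difference (adjusted p = 0.0467), 1 member in each, and 971 genes were called higher and 139 lower in UF1hypo. A block with the numbers crossed in UF1hypo, chosen after seeing the data, called 1 member, with 1036 genes higher and 171 lower. Precision is limited by 2 libraries a group and by the lack of counts. A fit of the libraries of a contrast alone gives no value for the difference.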

Other observations

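Other metallothionein genes of the files were low. MT4, MT1HL1, MT1CP, MT1IP and MT1JP were listed at 0 TPM in all 8 libraries, and MT1B reached 0.222 TPM in HCT116 shUHRF1 replicate 1 only. The pseudogene MT1L was at 1.74 TPM in UF1hypo shUHRF1 replicate 1 and at 0 in the other 7 libraries. The pseudogenes MT1DP and MT1XP1 reached 3.47 and 3.63 TPM and were above 0 in 7 and 8 libraries, so, unlike MT1G, they carried values in HCT116 as well. MT2P1, MT1P1 and MT1P3 stayed at or below 1.76 TPM. These genes share sequence with the members, and their values are uncertain for that reason.

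Across the 8 libraries, the genes whose log2(TPM + 1) followed the summed metallothionein TPM most closely, of 5802 compared, were EOLA1 (Pearson's r 0.984), TSSC4 (0.976), CDK11A (0.972), INAFM1 (0.963) and CRYBG2 (0.960). The libraries share 4 groups, and replicate 1 of UF1hypo shUHRF1, in which the difference between replicates followed GC content, was the highest of all for each of these genes, so r is given as a description. EOLA1 ran from 3.13 to 8.43 TPM and TSSC4 from 52.9 to 126 TPM.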
